A study of Homo sapiens with 12 samples.

Results

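Long non-coding RNAs that carry miRNA hairpins were examined in the TPC1 cell line and in its Dicer1 (+/−) clones. The 8 host transcripts MIR17HG, MIR22HG, MIR31HG, MIR100HG, MIR210HG, MIR4435-2HG, MIRLET7BHG and MIR99AHG were selected by gene name from the 58302 genes of the expression table. Of these 8 genes, 7 passed the filter on low values and were tested together with 16027 genes in all, and MIR17HG lay under the filter. TPC1 is a cell line established from a papillary thyroid carcinoma, and it was wild-type for Dicer1. D11, WB1 and TD5 are each 1 clone grown from a single TPC1 cell after transient transfection of a CRISPR-Cas9 plasmid with a guide against an exon of Dicer1, and each holds 1 wild-type and 1 disrupted allele. No line received any further treatment. Poly(A)-selected RNA was sequenced from 3 libraries per line, 12 in all. Because each clone descends from 1 cell and the labels do not say whether its 3 libraries came from separate cultures, the p-values measure only the spread between these libraries, and a difference caused by the Dicer1 allele cannot be told apart from one between clones.

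Most miRNAs are cut from long RNA polymerase II transcripts. Drosha releases the hairpin in the nucleus, and Dicer1 then removes its loop in the cytoplasm to give the short mature miRNA, whose seed (bases 2 to 8) pairs with target mRNAs. An mRNA library captures the spliced, polyadenylated host transcript. It therefore measures neither the mature miRNA nor its processing, and a hairpin that lies in an intron is not part of the RNA that is counted.

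The mature miRNAs are shown because the hosts share seeds across chromosomes, so that their levels have to be read side by side. All 19 annotated hairpins of the 8 hosts were matched to RefSeq (GRCh38.p14), which lists 36 mature sequences for them with 27 different seeds. The capitals mark the seed. The first group holds the seed of the let-7 family, which has members in MIR100HG (let-7a-5p), in MIRLET7BHG (let-7a-5p and let-7b-5p) and in MIR99AHG (let-7c-5p), and the 3 sequences differ from each other at 1 or 2 of 22 bases.
let-7a-5p: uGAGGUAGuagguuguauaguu
let-7b-5p: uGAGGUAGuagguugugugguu
let-7c-5p: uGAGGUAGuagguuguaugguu
The second group holds the miRNAs that MIR100HG and MIR99AHG share beside let-7. miR-100-5p (MIR100HG) and miR-99a-5p (MIR99AHG) differ at 1 of 22 bases, outside the seed, and miR-125b-5p is made from a hairpin in either host.
miR-100-5p: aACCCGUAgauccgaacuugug
miR-99a-5p: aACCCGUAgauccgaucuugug
miR-125b-5p: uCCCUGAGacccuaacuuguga
The remaining sequences belong to 1 host each. miR-210-3p comes from MIR210HG, miR-22-3p from MIR22HG and miR-31-5p from MIR31HG, while miR-17-5p and miR-20a-5p of MIR17HG share a seed.
miR-210-3p: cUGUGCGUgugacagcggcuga
miR-22-3p: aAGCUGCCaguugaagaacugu
miR-31-5p: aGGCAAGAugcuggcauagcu
miR-17-5p: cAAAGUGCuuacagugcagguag
miR-20a-5p: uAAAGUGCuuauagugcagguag

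The deposited values were whole numbers of scaled reads, that is gene counts that the authors normalized to 20000000 reads per library. Estimated sequencing depth was 12700000 to 21020000 per library, so that 3 reads, taken as the floor, corresponded to 2.85 to 4.72 scaled reads (counting error only). DICER1 itself had 1101 to 1360 scaled reads in TPC1, 977 to 1093 in D11, 815 to 939 in WB1 and 627 to 809 in TD5, so that every clone library lay below every TPC1 library, and it was called lower in TD5 (log2 fold change −0.77) and not in D11 (−0.19) or WB1 (−0.43). Among thyroid follicular markers, PAX8 was high (362 to 494 per 1000000), FOXE1 was present (4.65 to 15.8 per 1000000) and TG was low (0.55 to 1.35 per 1000000), whereas TSHR, NKX2-1 and SLC5A5 were at 0 in every library. FOXE1 was lower in all 3 clones (log2 fold change −0.95, −1.06 and −1.20 in D11, WB1 and TD5). Markers of leukocytes, endothelial cells and C cells, summed for each cell type separately, reached at most 9 scaled reads in any library. Those of fibroblasts summed to 48 to 97 scaled reads, nearly all from COL1A1, with DCN at 0.

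Genes counted as called when limma gave an adjusted p (Benjamini-Hochberg) under 0.05 together with at least 1.5-fold, on log2(value per 1000000 + 1), a scale that understates the change of low genes. The hosts that were called were few and differed between clones. In D11, 1 of the 7 tested hosts was called higher (MIR100HG) and 0 lower, where 2.89% of all tested genes were called higher and 1.95% lower. In WB1, 2 of 7 were called higher (MIR210HG and MIR100HG) and 0 lower, against 3.39% and 1.59% of all genes. In TD5, 1 of 7 was called higher (MIR210HG) and 0 lower, against 1.12% and 1.48% of all genes. None of the hosts was called in every clone, where 0.2% of all genes were called higher, and 0.374% lower, in each of the 3. At an unadjusted p under 0.05, 0 hosts were lower in any clone, and voom on the scaled reads also called 0 lower. Here and below, counts at an unadjusted p and counts of voom calls stand without the share of all genes beside them. The 3 comparisons share the TPC1 libraries. All 3 libraries of the clone lay above all 3 of TPC1 for 2 of the 7 hosts in D11 (29.6% of all genes), 5 of 7 in WB1 (26.5%) and 1 of 7 in TD5 (12.1%). The median log2 fold change of the 7 hosts was 0.17 in D11, 0.31 in WB1 and 0.04 in TD5, beside medians of 0.05, 0.06 and 0.00 over all tested genes.

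**Figure D1:**
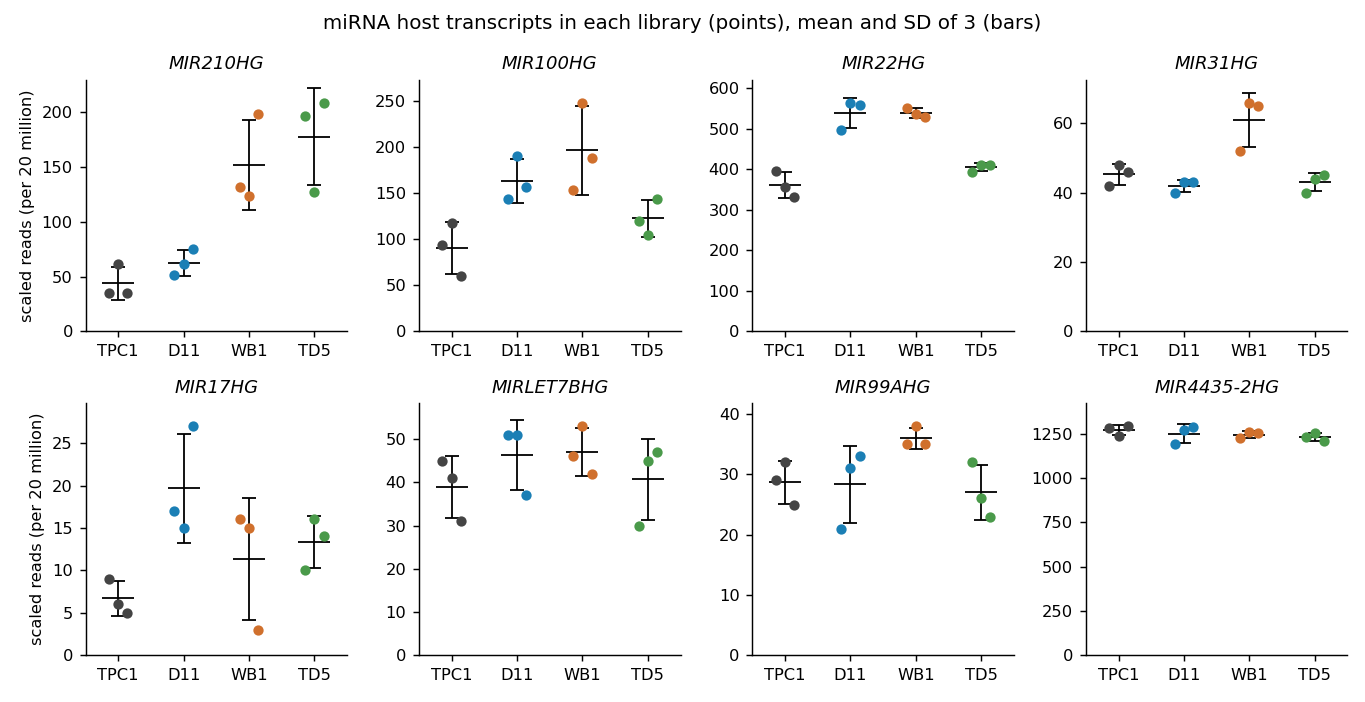
Scaled reads (per 20000000 reads, vertical axis) of each host transcript in the 3 libraries of TPC1, D11, WB1 and TD5; points are libraries, the wide bar is the mean and the whiskers are the SD (n = 3). MIR210HG lies above every TPC1 and D11 library in WB1 and TD5, MIR100HG lies above every TPC1 library in D11 and WB1, and MIR4435-2HG has nearly the same level in all 12 libraries.

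MIR210HG is the host of miR-210, the miRNA best known for its induction by hypoxia through HIF-1. It was the host with the largest difference, with calls in WB1 and TD5 (both higher) and no call in D11. The gene (ENSG00000247095) spans chr11:565657-568457 on the minus strand of GRCh38, with the hairpin in an intron of all 9 annotated transcripts. Its scaled reads were 35, 61 and 35 in TPC1 replicates 1, 2 and 3, and 51, 61 and 75 in D11. WB1 had 132, 124 and 199 and TD5 had 197, 127 and 209. The WB1 and TD5 libraries overlapped each other and lay clear of all 6 TPC1 and D11 libraries, and TPC1 and D11 overlapped.

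The mean of MIR210HG was 43.7 ± 15.0 scaled reads in TPC1, 62.3 ± 12.1 in D11, 152 ± 41.2 in WB1 and 178 ± 44.3 in TD5 (mean ± SD of 3 libraries). The ratio of these means to TPC1 was 3.47 in WB1 and 4.07 in TD5. On the log2 scale the fitted change was 1.43 ± 0.20 (SE) in WB1 (limma adjusted p = 8.84e-05) and 1.63 ± 0.20 in TD5 (adjusted p = 5.11e-05). In D11 it was 0.39 with a 95% interval of −0.03 to 0.80 (adjusted p = 0.138), an interval that includes both no change and a change past 1.5-fold. The clones differed from each other in direct comparisons: MIR210HG was higher in WB1 than in D11 by 1.04 on the log2 scale (adjusted p = 0.00225) and higher in TD5 than in D11 by 1.25 (adjusted p = 0.000357). WB1 and TD5 could not be separated, with a difference of 0.20 and a 95% interval of −0.21 to 0.62 (adjusted p = 0.516).

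The 250 kb on either side of MIR210HG hold 22 other tested genes, and limma called 0 of them in any clone, with 8, 11 and 5 at an unadjusted p under 0.05 in D11, WB1 and TD5 (their log2 fold changes lay between −0.55 and 0.45 in WB1 and between −0.24 and 0.53 in TD5). Voom on the scaled reads called 2, 2 and 1 of them, all higher, namely LRRC56 and AP006621.3 in D11 and WB1 and IRF7 in TD5 (named after their values were seen). No other gene's exons overlap those of MIR210HG. MIR210HG was also set beside a list of 12 genes known to be induced by hypoxia, of which 10 were tested. In D11, 0 of the 10 were called by limma or by voom, though 2 were higher and 1 was lower at an unadjusted p under 0.05. These were VEGFA (log2 fold change 0.49, limma adjusted p = 0.0214), PDK1 (0.46, 0.0481) and SLC2A1 (−0.45, 0.00105), each under 1.5-fold. In WB1 4 of the 10 were called higher and in TD5 6 were, and 0 were called lower in either clone by limma or voom (1 and 0 at an unadjusted p under 0.05). Over all tested genes, 3.39% were called higher in WB1 and 1.12% in TD5. The median log2 fold change of the 10 genes was 0.03 in D11, 0.53 in WB1 and 0.69 in TD5.

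The hypoxia genes that rose included secreted factors and metabolic enzymes. VEGFA, the angiogenic growth factor, rose by 1.29 in WB1 and by 1.15 in TD5 on the log2 scale (adjusted p = 2.08e-05 and 0.000127). PDK1, the kinase that inhibits pyruvate dehydrogenase, rose by 0.72 and 1.21 (adjusted p = 0.00551 and 0.000228). ADM, which encodes the vasoactive peptide adrenomedullin, rose by 0.80 and 0.79, and the stress-response gene NDRG1 by 0.74 and 1.08. In TD5 BNIP3, a mitophagy receptor, rose by 0.92 (beside 0.34 in WB1), and it was higher in TD5 than in WB1 by 0.59 (adjusted p = 0.0225). P4HA1, a collagen prolyl hydroxylase, had 0.60 in TD5, just past 1.5-fold, beside 0.51 in WB1. Other members of the list moved little or missed the threshold. KDM3A, a histone demethylase, had 0.56 in WB1 and 0.56 in TD5, under 1.5-fold, and SLC2A1, the glucose transporter GLUT1, had −0.45 in D11, −0.23 in WB1 and 0.24 in TD5. CA9 and EGLN3 stayed under the filter in every line.

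MIR210HG and the hypoxia genes were also set side by side in each library. The mean log2(value per 1000000 + 1) of the 10 hypoxia genes was 5.04, 5.11 and 4.99 in TPC1 replicates 1, 2 and 3, and 5.08, 4.93 and 5.17 in D11. It was 5.42, 5.51 and 5.76 in WB1, and 5.78, 5.47 and 5.97 in TD5. In all 4 lines the library with the most MIR210HG was also the library with the highest mean of the hypoxia genes. The order of the remaining libraries was the same for both in TD5 and opposite in D11 and WB1, and in TPC1 they were tied for MIR210HG. The part of this variation between libraries in the difference between lines was not tested.

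**Figure D2:**
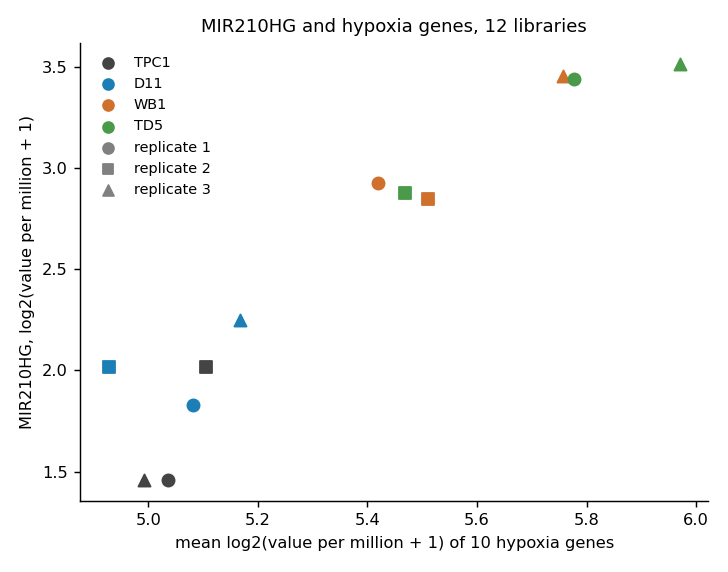
Log2(value per 1000000 + 1) of MIR210HG (vertical axis) against the mean of the same quantity over 10 hypoxia genes (horizontal axis) in the 12 libraries; colour gives the line and the symbol the replicate. The TPC1 and D11 libraries lie at the lower left with hypoxia means of 4.93 to 5.17, and the WB1 and TD5 libraries at the upper right with 5.42 to 5.97.

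By the similarity of the 4 line means (root mean square difference on the log2 scale after centring, over 12243 genes with at least 5 per 1000000), the genes most like MIR210HG were PFKFB4 and PPFIA4. PFKFB4, a regulator of glycolysis, lay at a distance of 0.114 and had 270, 383 and 265 scaled reads in TPC1 and 334, 249 and 381 in D11. WB1 had 645, 699 and 1048, and TD5 had 912, 642 and 1164. As for MIR210HG, TPC1 replicate 2, D11 replicate 3, WB1 replicate 3 and TD5 replicate 3 were the highest of their lines. PPFIA4, a liprin, lay at 0.159. The median distance of all these genes was 0.696.

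The promoter of MIR210HG is printed because HIF-1 binds short core motifs that include ACGTG, and the transcript was called in the same clones as hypoxia genes. Only the form ACGTG was searched and marked, so that other forms of the motif are not counted here. The window of 300 bases around the start (chr11:568408-568707, minus strand, GRCh38.p14, RefSeq, 250 bases before the start to 50 after it) held 1 match to ACGTG, in capitals, when both strands were searched.
MIR210HG promoter: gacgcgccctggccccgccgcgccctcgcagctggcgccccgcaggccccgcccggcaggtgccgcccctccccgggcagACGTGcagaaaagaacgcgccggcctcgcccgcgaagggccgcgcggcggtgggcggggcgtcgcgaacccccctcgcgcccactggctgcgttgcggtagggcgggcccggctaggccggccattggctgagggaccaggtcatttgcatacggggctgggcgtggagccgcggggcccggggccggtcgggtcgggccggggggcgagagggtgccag
Of 18 promoter windows listed for the host genes, 4 held a match, as did 21.4% of 35116 promoters of the same length. A match of 5 bases is a description of the letters and no evidence of a binding site.

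MIR100HG, MIR99AHG and MIRLET7BHG hold the let-7, miR-99/100 and miR-125b hairpins, of which let-7 is known to restrain growth and to be abundant in differentiated cells. Only MIR100HG of these 3 hosts was called in any clone. MIR100HG (ENSG00000255248) spans chr11:122028325-122556721 on the minus strand, and MIR100, MIRLET7A2 and MIR125B1 lie in its introns. It had 94, 117 and 60 scaled reads in TPC1 replicates 1, 2 and 3, and 143, 190 and 156 in D11. WB1 had 153, 248 and 188 and TD5 had 120, 104 and 143. Every D11 and WB1 library lay above every TPC1 library, while TD5 overlapped TPC1.

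The means of MIR100HG were 90.3 ± 28.7 scaled reads in TPC1, 163 ± 24.3 in D11, 196 ± 48.1 in WB1 and 122 ± 19.6 in TD5 (mean ± SD of 3 libraries). The fitted log2 fold change against TPC1 was 0.76 ± 0.18 (SE) in D11 (limma adjusted p = 0.00600) and 0.98 ± 0.18 in WB1 (adjusted p = 0.00110). In TD5 it was 0.39 with a 95% interval of 0.00 to 0.78 (adjusted p = 0.179). The D11 change fell under 1.5-fold without TPC1 replicate 3, the lowest library, where it was 0.54, with GC content correction, where it was 0.47, and with a pseudocount of 4, where it was 0.52 (the WB1 change stayed called in each setting tried). MIR100HG was lower in TD5 than in WB1 by a log2 fold change of −0.59 (adjusted p = 0.0429), a call close to both thresholds that was lost in 14 of 26 alternative settings. Between D11 and WB1 the difference was 0.23 (95% interval −0.16 to 0.61), and between D11 and TD5 it was −0.36 (−0.75 to 0.02).

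The one tested gene within 250 kb of MIR100HG was UBASH3B, which encodes a tyrosine phosphatase and lies 99001 bases away on the opposite strand. It had fold changes of 0.47, 0.58 and 0.37 on the log2 scale in D11, WB1 and TD5 (adjusted p = 0.000281, 3.83e-05 and 0.00287), each under 1.5-fold. The exons of MIR100HG overlap those of the annotated genes BLID and AP000755.1 on the same strand and of AP000755.2 on the opposite strand, so that reads there may be assigned to either. The genes most like MIR100HG over the 4 line means were SEC31B, a paralogue of a coat protein of vesicles, at a distance of 0.0122, and the kinase gene MAST4 at 0.0374, where the median distance was 0.366. SEC31B had 67, 81 and 73 scaled reads in TPC1 and 166, 137 and 120 in D11. The libraries of WB1 had 163, 175 and 159, and those of TD5 125, 104 and 90.

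MIR99AHG (ENSG00000215386, chr21:15928296-16646364, plus strand), the counterpart of MIR100HG with hairpins for miR-99a, let-7c and miR-125b, was a low transcript. Its scaled reads were 29, 32 and 25 in TPC1 and 21, 31 and 33 in D11, while WB1 had 35, 38 and 35 and TD5 had 32, 26 and 23. The 3 WB1 libraries lay just above those of TPC1, and those of D11 and TD5 overlapped them. The log2 fold change was −0.02 in D11 (95% interval −0.29 to 0.26), 0.20 in WB1 (−0.07 to 0.48) and −0.05 in TD5 (−0.33 to 0.23), all within 1.5-fold in either direction. USP25, a deubiquitinase and the only tested neighbour of MIR99AHG within 250 kb, had 0.45, 0.39 and 0.15.

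MIRLET7BHG (ENSG00000197182, chr22:46053869-46113928, plus strand) carries let-7a-3, let-7b and miR-4763 in an exon of 1 of its 9 annotated transcripts. It had 45, 41 and 31 scaled reads in TPC1 and 51, 51 and 37 in D11. WB1 had 46, 53 and 42, and TD5 had 30, 45 and 47. All 4 lines overlapped, and D11 differed from TPC1 by 0.17 on the log2 scale (95% interval −0.14 to 0.48), WB1 by 0.19 (−0.12 to 0.50) and TD5 by 0.04 (−0.27 to 0.35). Its exons overlap PRR34-AS1 on the same strand, which had 0.12, 0.07 and −0.14, and how reads were divided between the 2 genes is uncertain.

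MIR22HG is the host of miR-22, and its hairpin lies in an exon of 30 of 32 annotated transcripts (ENSG00000186594, chr17:1711447-1717174, minus strand). It had 395, 355 and 332 scaled reads in TPC1 and 497, 564 and 557 in D11. WB1 had 551, 535 and 528, and TD5 had 393, 411 and 409. The D11 and WB1 libraries all exceeded those of TPC1 and TD5. The mean was 361 ± 31.9 in TPC1, 539 ± 36.8 in D11, 538 ± 11.8 in WB1 and 404 ± 9.87 in TD5 (mean ± SD of 3 libraries).

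The fitted change of MIR22HG was 0.56 ± 0.08 (SE) in D11 (limma adjusted p = 0.000176) and 0.55 ± 0.08 in WB1 (adjusted p = 0.000171) on the log2 scale, past the p threshold and just under 1.5-fold, so that it was not called. Without TPC1 replicate 1, the highest TPC1 library, both values were 0.62 and passed both thresholds. In TD5 the change was 0.16 with a 95% interval of −0.01 to 0.33 (adjusted p = 0.224). TD5 was lower than D11 by a log2 fold change of −0.40 (adjusted p = 0.00286) and lower than WB1 by −0.40 (adjusted p = 0.00549), both under 1.5-fold. D11 and WB1 differed by −0.0016 on the log2 scale with a 95% interval of −0.17 to 0.17.

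The annotation gives the miR-22 hairpin a row of its own, with 31, 27 and 24 scaled reads in TPC1 and 27, 24 and 25 in D11. WB1 had 39, 36 and 25, and TD5 had 27, 26 and 27. The hairpin row overlapped with TPC1 in every clone, with log2 differences of −0.06 (D11), 0.17 (WB1) and −0.02 (TD5). MIR22HG itself overlapped with TPC1 only in TD5. The difference between MIR22HG and its hairpin row was not tested. Reads that touch both genes may have been assigned to neither or to one. Of the other 18 hairpin rows, 8 were at 0 in every library and 10 reached at most 3 scaled reads, near or under the floor, so that these libraries give no measure of the precursors. Among 17 tested genes within 250 kb of MIR22HG, the hairpin row included, only SLC43A2, an amino acid transporter, was called, lower in TD5 by a log2 fold change of −0.60 (adjusted p = 0.0390).

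MIR31HG, the host of miR-31 beside the CDKN2A locus, was called in no clone. It spans chr9:21380073-21559891 on the minus strand (ENSG00000171889). It had 42, 48 and 46 scaled reads in TPC1 and 40, 43 and 43 in D11. WB1 had 52, 66 and 65, and TD5 had 40, 44 and 45. The WB1 libraries lay above all 9 others, at 61.0 ± 7.81 scaled reads against 45.3 ± 3.06 in TPC1 (SD, n = 3 each), and the other 3 lines overlapped.

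The log2 fold change of MIR31HG in WB1 was 0.31 with a 95% interval of 0.06 to 0.55 (limma adjusted p = 0.0521), so that it missed the p threshold. In D11 it was −0.07 (−0.32 to 0.17) and in TD5 −0.05 (−0.29 to 0.19). TD5 was lower than WB1 by a log2 fold change of −0.36 (adjusted p = 0.0473), under 1.5-fold. On the opposite strand the exons of MIR31HG overlap interferon genes and pseudogenes, of which IFNWP19 had 0.26 in WB1 (adjusted p = 0.120). Of 5 tested genes from a list of 6 at the 9p21 locus, 0 were called in D11 or WB1 (by voom 2 and 1, and at an unadjusted p under 0.05 3 and 4), and CDKN2B, which encodes the cell cycle inhibitor p15, was called lower in TD5 (−0.59, adjusted p = 0.00621). CDKN2B had −0.51 in D11 and −0.35 in WB1, under 1.5-fold.

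MIR17HG, the host of the miR-17 cluster of 6 hairpins that promotes proliferation, had the fewest reads of the 8 transcripts. It spans chr13:91347686-91397592 on the plus strand (ENSG00000215417), and its hairpins lie in an exon of 3 and in an intron of 8 of its 16 annotated transcripts. Scaled reads were 9, 6 and 5 in TPC1 and 17, 15 and 27 in D11. WB1 had 16, 15 and 3, and TD5 had 10, 16 and 14. The D11 and TD5 libraries lay above those of TPC1 and WB1 spanned them, and WB1 replicate 3 was under the floor of 3 reads. In a fit without the filter, on 34101 genes, MIR17HG had a log2 fold change of 0.56 in D11 (limma adjusted p = 0.0312), 0.21 in WB1 (limma adjusted p = 0.497) and 0.32 in TD5 (limma adjusted p = 0.353), none of them past 1.5-fold on that scale, and the ratios of means were 2.95, 1.70 and 2.00. Of 5 transcription factors known to act on MIR17HG, 4 were tested and 0 were called higher in any clone by limma or voom (2, 0 and 0 were higher at an unadjusted p under 0.05 in D11, WB1 and TD5). E2F1 was called lower in WB1 (−0.66, adjusted p = 0.000109).

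MIR4435-2HG, a long non-coding RNA that holds the miR-4435-2 hairpin, had nearly the same level in every line. It spans chr2:111006015-111523376 on the minus strand (ENSG00000172965). It had 1284, 1239 and 1293 scaled reads in TPC1 and 1191, 1272 and 1290 in D11. WB1 had 1224, 1259 and 1256, and TD5 had 1232, 1255 and 1209. The log2 fold changes were −0.02 (95% interval −0.15 to 0.10), −0.03 (−0.15 to 0.09) and −0.05 (−0.17 to 0.08) in D11, WB1 and TD5. On the linear scale these intervals together run from 0.890 to 1.07 times TPC1. Over 26 alternative settings the log2 fold change reached −0.20 in D11 and −0.18 in WB1, under 1.5-fold. The lowest limma adjusted p over these settings was 0.0179 in D11 and 0.0275 in WB1, so that the flat level depends in part on the processing.

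CYTOR, also on chromosome 2, is a near-identical copy of part of MIR4435-2HG, and how reads were divided between the copies is uncertain. CYTOR had 919, 921 and 926 scaled reads in TPC1 and 778, 810 and 782 in D11. The libraries of WB1 had 721, 777 and 785, and those of TD5 779, 819 and 655. Each clone library lay below each TPC1 library, with log2 fold changes of −0.22, −0.27 and −0.30 (limma adjusted p = 0.0408, 0.0154 and 0.0204), all under 1.5-fold. On the opposite strand the exons of MIR4435-2HG overlap BCL2L11, a pro-apoptotic gene, and AC108463.2, which was called higher in D11 (0.72, adjusted p = 0.00216).

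**Figure D3:**
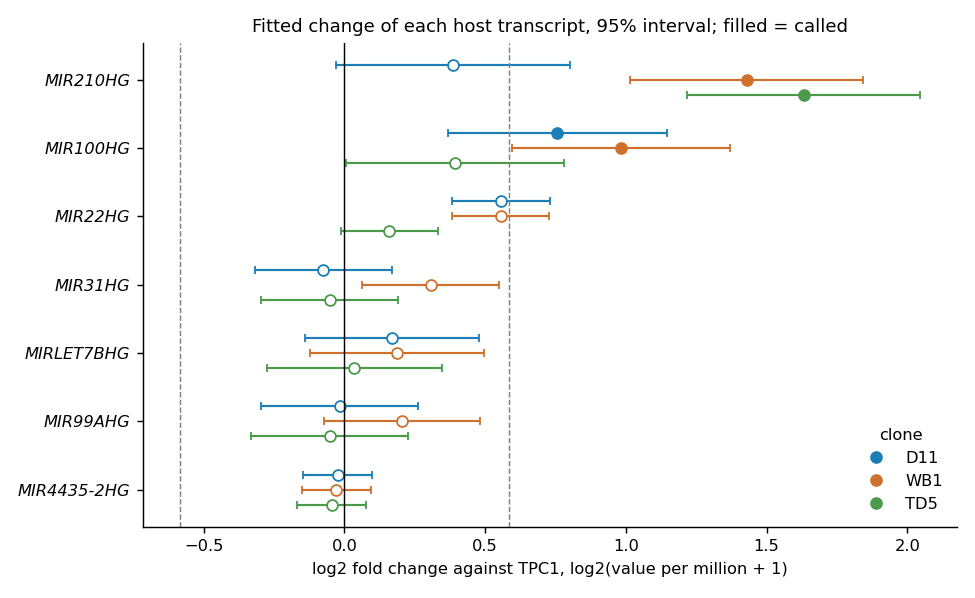
Fitted log2 fold change of the 7 tested host transcripts in D11, WB1 and TD5 against TPC1 (horizontal axis, log2(value per 1000000 + 1)), with 95% intervals; filled points were called and dashed lines mark 1.5-fold. MIR210HG is filled in WB1 (1.43) and TD5 (1.63), MIR100HG in D11 (0.76) and WB1 (0.98), and the D11 and WB1 points of MIR22HG (0.56 and 0.55) lie just inside the dashed line.

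Levels of the hosts were compared with each other per kb of the longest annotated transcript. In TPC1, MIR4435-2HG had 9.55 ± 0.218 and MIR22HG 6.27 ± 0.554 per 1000000 per kb (mean ± SD of 3 libraries). They were followed by MIR100HG with 0.996 ± 0.316 and MIR210HG with 0.951 ± 0.327, whose libraries overlapped, and by MIRLET7BHG with 0.427 ± 0.0790 and MIR31HG with 0.347 ± 0.0234, which also overlapped. MIR99AHG had 0.160 ± 0.0196 and MIR17HG 0.0508 ± 0.0159. In D11 and WB1 the levels of MIR22HG (9.37 and 9.35 per 1000000 per kb) overlapped those of MIR4435-2HG (9.39 and 9.36), and in WB1 and TD5 MIR210HG (3.30 and 3.87) stood above MIR100HG (2.16 and 1.35), though the libraries of WB1 overlapped. The order depends on the length used, because MIR4435-2HG and MIR100HG have 108 and 107 annotated transcripts: per kb of all exons MIR22HG came first in every line (5.80 in TPC1) and MIR4435-2HG had 1.86.

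The clones were also compared with each other. WB1 against D11 called 1 of the 7 hosts higher and 0 lower (1.97% and 0.88% of all genes), and TD5 against D11 called 1 higher and 0 lower (1.67% and 2.32%), MIR210HG in both. TD5 against WB1 called 0 higher and 1 lower (0.611% and 1.72%), which was MIR100HG. DICER1 had its lowest level in TD5 and MIR210HG its highest mean there, whereas MIR100HG and MIR22HG were nearest to TPC1 in TD5. The order of the clones thus differed between the hosts.

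Other miRNA hosts were examined to see whether such changes were shared. Among 51 other genes named as miRNA host genes, 12 were tested. In D11, 4 of the 12 were called higher, in WB1 3 and in TD5 0 (0 by voom, 3 at an unadjusted p under 0.05), and none was called lower by limma (1 in D11 by voom), with median log2 fold changes of 0.45, 0.34 and 0.13. Beside them, 2.89%, 3.39% and 1.12% of all tested genes were called higher in D11, WB1 and TD5, and 1.95%, 1.59% and 1.48% lower. MIR222HG, the host of miR-221 and miR-222, which are raised in papillary thyroid carcinoma, had 38, 42 and 50 scaled reads in TPC1 and 160, 184 and 202 in D11, while WB1 had 162, 236 and 126 and TD5 had 78, 65 and 82. All 9 clone libraries lay above TPC1, and D11 and WB1 lay above TD5. MIR222HG rose by 1.67 in D11 and by 1.59 in WB1 on the log2 scale (limma adjusted p = 2.41e-06 and 6.39e-06), and in TD5 it had 0.58, barely under 1.5-fold (adjusted p = 0.0270). MIR222HG was lower in TD5 than in D11 and WB1 (log2 fold change −1.09 and −1.0, adjusted p = 0.000224 and 0.000913).

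The further calls among these hosts were smaller. MIR34AHG, the host of the p53-induced miR-34a, had 57, 51 and 41 scaled reads in TPC1 and 114, 118 and 86 in D11, and rose by 0.85 in D11 (adjusted p = 0.000761), with 0.57 in WB1 and 0.08 in TD5. MIR155HG, the host of miR-155, rose by 0.62 in D11 and 0.78 in WB1, with 0.50 in TD5. The D11 call of MIR155HG was lost with the replicate number as a block (limma adjusted p = 0.0558, beside 0.0375 without it). MIR646HG rose by 0.72 in D11, with 0.16 in WB1 and 0.28 in TD5, and MIR193BHG rose by 0.67 in WB1, with 0.46 in D11 and 0.48 in TD5. Neither gene was called in a comparison between clones. Among 36 longer-known hosts, most of them protein-coding genes with a miRNA in an intron, 33 were tested. Of these, 0 were called in D11 or WB1 by limma or voom (13 and 14 had an unadjusted p under 0.05), and SREBF1, the regulator of fatty acid synthesis that holds miR-33b, was called higher in TD5 (0.71, adjusted p = 0.000139).

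**Figure D4:**
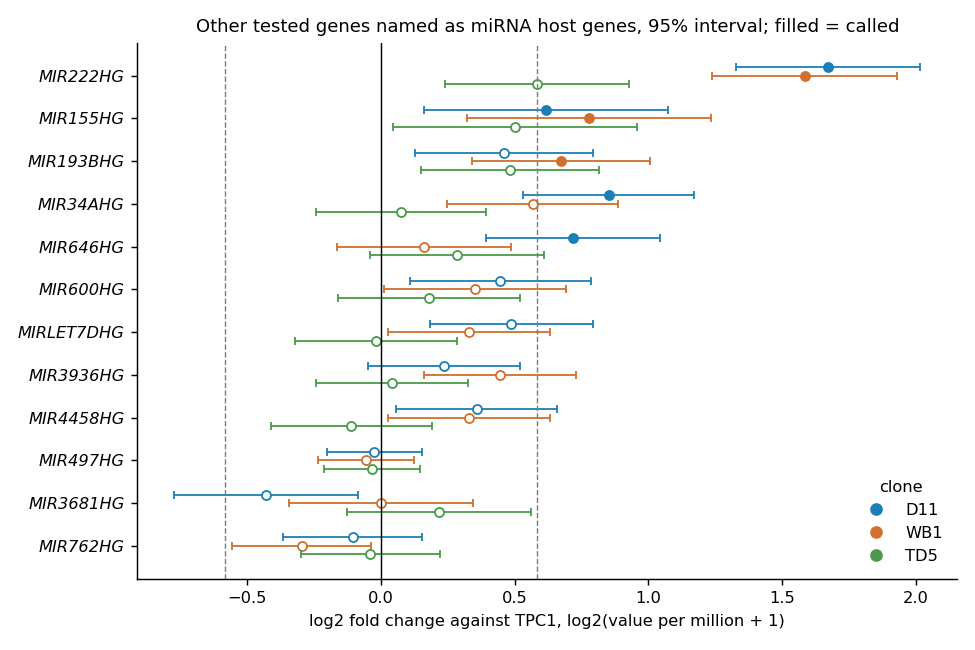
Fitted log2 fold change of the 12 other tested genes named as miRNA host genes in D11, WB1 and TD5 against TPC1 (horizontal axis, log2(value per 1000000 + 1)), with 95% intervals; filled points were called and dashed lines mark 1.5-fold. MIR222HG stands apart in D11 (1.67) and WB1 (1.59), and no point lies left of the lower dashed line.

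Finally, 49 well-studied targets of the miRNAs encoded by the hosts were counted, of which 44 were tested. In D11, 1 was called higher and 0 lower, in WB1 2 higher and 3 lower, and in TD5 0 higher and 2 lower. DICER1, the edited gene, is counted here as a let-7 target and was 1 of the 2 called lower in TD5. Of all tested genes, 2.89%, 3.39% and 1.12% were called higher in D11, WB1 and TD5, and 1.95%, 1.59% and 1.48% lower. The lower calls in WB1 took a larger share of the targets than of all genes, on 3 genes. Those in TD5 did so on 2 genes, 1 of them the edited DICER1. Whether targets differ as a group was not tested, and the values that follow describe single genes. At an unadjusted p under 0.05, D11 had 16 of the 44 targets higher and 10 lower. By the same measure WB1 had 11 higher and 10 lower, while TD5 had 8 higher and 6 lower. The share of all tested genes at that p is not given, so these counts do not show whether the targets stand out. Voom gave the same numbers of calls as limma for WB1 and TD5, and for D11 it called 1 higher and 1 lower. HMGA2, an architectural chromatin protein and let-7 target, had 1217, 1383 and 1341 scaled reads in TPC1 and 2051, 2033 and 2471 in D11. WB1 had 2440, 2409 and 2127, and TD5 had 1711, 1391 and 2662. Every clone library lay above TPC1, and HMGA2 rose by 0.72 in D11 (adjusted p = 0.00270) and by 0.81 in WB1 (adjusted p = 0.00117), with 0.49 in TD5, under 1.5-fold. RAD52, a DNA repair gene and target of miR-210, rose by 0.78 in WB1 (adjusted p = 6.60e-06), with 0.54 in D11 and 0.52 in TD5. The direction of RAD52 was the same as that of its miRNA's host in WB1.

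Other targets were called lower. FGFR3, a growth factor receptor and target of miR-99 and miR-100, was lower in WB1 (−0.93, adjusted p = 0.000283), with −0.36 in D11 and −0.30 in TD5, not called. Of the 10 targets of the miR-17 family, THBS1, an inhibitor of angiogenesis, was called lower in WB1 (−0.86, adjusted p = 0.000215). THBS1 had −0.44 in D11 and −0.57 in TD5, under 1.5-fold. E2F1 was also called lower in WB1, with 0.11 in D11 and −0.15 in TD5. CDKN1A, which encodes the cell cycle inhibitor p21, was called lower in TD5 (−0.71, adjusted p = 0.000319). CDKN1A had −0.47 in WB1 and, in the other direction, 0.35 in D11, both under 1.5-fold. DICER1, itself a let-7 target, is the gene edited in these clones. Of the 17 tested targets of miR-31, miR-125b and miR-22, 0 were called in any clone by limma or voom, with 10, 8 and 6 at an unadjusted p under 0.05 in D11, WB1 and TD5. As these are bulk samples, fewer cells with a transcript and less transcript per cell cannot be told apart, and mature miRNAs were not measured in these libraries.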

How the data were processed

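Expression was measured in 12 libraries (TPC1, D11, WB1 and TD5, 3 per line), grouped by title. The authors prepared stranded mRNA libraries, mapped reads to GRCh38 with STAR 2.5.3a, counted genes with HTSeq 0.9.1 (per the labels) and normalized to 20000000 reads. The deposited values are treated as a score, not as raw reads: each library sums to 20009833 to 20014191, as rounding up gives. The strand setting of the counting is not given in the sources used here. Depth was estimated from the steps between values.

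Values were divided by library sums expressed per 1000000 and log2-transformed with a pseudocount of 1. A linear model with a mean for every line was fitted to the 12 libraries together (limma 3.58.1, R 4.3.3, trended prior variance). The test covered 16027 of 58302 genes, those reaching 1 per 1000000 in 3 libraries or more. A call needed a Benjamini-Hochberg adjusted p under 0.05, over all tested genes, and at least 1.5-fold. Intervals are 95% and two-sided. Where the text gives an adjusted p, it is limma's. The share of all tested genes at an unadjusted p under 0.05, or called by voom, is not given, so that counts of these kinds have no background beside them.

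The members, gene lists and the rule for named genes (all hosts, called neighbours within 250 kb, called list genes, and the 2 genes nearest by line means) were chosen with earlier results of these data known. In simulated data for D11 against TPC1, 96.5% of 200 genes changed 2-fold were recovered among 16005 tested, and 1 unchanged gene was called. The changed genes were drawn only from better expressed genes, and all genes were given the same spread beyond counting error. Genes as low as MIR99AHG or MIR17HG were not among the changed ones, so that this share does not apply to such hosts.

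A further follicular marker of the list is not reported here. Gene positions came from GENCODE on GRCh38 and sequences from RefSeq. Alternatives covered pseudocount, filter, scaling, test, thresholds, GC content and length correction, a replicate block and leaving out each library. A fit by voom on the estimated reads was chosen after seeing the data. Deviations of same-numbered libraries from their line means correlated above 0.1 in all 3 pairs of D11 and TD5 only (0.107, 0.172 and 0.348). This was taken as a hint of pairing. The main fit held no term for the replicate number, and the replicate block was tried only as an alternative. Python 3.11.15 was used for tables and figures.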

Additional observations from a re-analysis of the deposited data

Results flagged for a closer look

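Differences between the clones were looked at again where a direct comparison of 2 clones passed both thresholds in limma. MIR210HG was higher in WB1 than in D11 by 1.04 on the log2 scale (adjusted p = 0.00225) and higher in TD5 than in D11 by 1.25 (adjusted p = 0.000357), and in each comparison all 3 libraries of one clone lay above all 3 of the other. MIR100HG was lower in TD5 than in WB1 by a log2 fold change of −0.59 (adjusted p = 0.0429), with all 3 TD5 libraries below all 3 WB1 libraries. This MIR100HG call was lost in 14 of 26 alternative settings. The separation of the libraries describes the same values as the test, and its share over all genes is not given for these comparisons.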

How the results depend on the processing

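For 33 log2 fold changes of single hosts, 26 alternatives gave 846 values, of which 806 kept their direction and side of the threshold. Each MIR210HG call and the WB1 call of MIR100HG held in all alternatives. Hosts called in D11 numbered 1, but 0 with a pseudocount of 4 or GC content correction (where MIR100HG had 0.52 and 0.47) and 2 with no minimum fold change. In TD5 against WB1 they numbered 1, but 0 with pseudocounts of 0.1 and 4, no filter, median-of-ratios scaling, no trend, an adjusted p under 0.01, GC content correction or length correction, and 3 with no minimum fold change. In TD5 against D11 they numbered 2 with no minimum fold change. Without 1 library at a time they ranged from 0 to 2 in D11, from 2 to 3 in WB1 and from 0 to 1 in TD5 against WB1. In D11 the count was 0 without TPC1 replicate 3 and 2 without TPC1 replicate 1 or D11 replicate 1. In TD5 against WB1 it was 0 on leaving out TPC1 replicate 1 or D11 replicate 3, and likewise for replicates 2 and 3 of WB1 and replicates 1 and 2 of TD5.

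Of the other hosts and the 8 together, the counts of called genes were 5 (D11), 5 (WB1) and 2 (TD5). In D11 there were 8 with a pseudocount of 0.1 or either voom fit, 1 with a pseudocount of 4, 2 with a filter at 5 per 1000000, 18 with no minimum fold change and 3 with GC content correction. In WB1 there were 3 with a pseudocount of 4, 3 with the filter at 5 and 18 with no minimum fold change, and in TD5 6 with no minimum fold change. Without 1 library at a time the counts ranged from 3 to 6 (D11), 3 to 7 (WB1) and 2 to 4 (TD5); they were 3 and 3 in D11 and WB1 without TPC1 replicate 3, and 4 in TD5 without TD5 replicate 2. The cause of these shifts was not tested.

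The sign turned only for hosts that were not called. For MIR22HG in WB1 against D11 it was 0.001314 with length correction and −0.057 to 0.031 without 1 library. MIR99AHG in WB1 had −0.019 with GC content correction. Without 1 library, MIR31HG in TD5 against D11 ranged from −0.00081 to 0.057, MIR4435-2HG in D11 from −0.047 to 0.010, MIRLET7BHG in TD5 from −0.066 to 0.17, and MIR99AHG from −0.087 to 0.098 in D11 and from −0.13 to 0.0096 in TD5.

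With the replicate block, the fit called 1, 2 and 1 hosts in D11, WB1 and TD5, and MIR210HG kept 1.25 in TD5 against D11 (limma adjusted p = 0.000772). The block changed no call of the 7 tested hosts, while over these and the other hosts it left 4 calls in D11 in place of 5 (MIR155HG lost its call), 5 in WB1 and 2 in TD5. MIR17HG lay under both filters and MIR31HG, MIRLET7BHG and MIR99AHG under the filter at 5 per 1000000, so that they have no value there. Depth limits MIR17HG most, at 3 to 27 scaled reads. Median-of-ratios scaling moved the median of all genes by less than 0.1.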
